A study of Mus musculus with 3 samples.

Results

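The genes described here are 10 members of the activin and transforming growth factor beta (TGF-beta) pathway, measured in RAW macrophages. They were chosen by name, as the gene probes of the arrays that carry the symbols *Inhba*, *Inhbb*, *Tgfb1*, *Fst*, *Smad7*, *Acvr1b*, *Acvr2a*, *Tgfbr1*, *Tgfbr2* and *Tgfbi*. All 10 were on the array, with 19 of its 56605 gene probes, among 26840 genes in all. *Inhba* was picked for its large rise with both strains in these same arrays, so its values are given as a description and support nothing by themselves.

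The RAW line is an immortalized mouse macrophage line, and its response is not that of macrophages in the body. Each of the 3 groups was 1 array. In the LPS group, cells received lipopolysaccharide, a Gram-negative cell wall component that activates TLR4, at 50 ng/mL. In the CRL1505 + LPS group, cells were first cultured for 24 h with *L. rhamnosus* CRL1505 at 50000000 bacteria per mL, and the bacteria were removed before the same dose of LPS. In the CRL1506 + LPS group, *L. plantarum* CRL1506 was given in the same way. LPS lasted 12 h according to the series design and the paper, and 3 h according to the sample descriptions. The arrays do not settle which. All groups had LPS, and arrays of cells without it were not analysed here. With no replicates there is no test, and a gene is said to have risen or fallen where its ratio was at least 2-fold. The SD of the log2 ratio between probes of the same gene gives the spread within a pair of arrays. Its median was 0.23 for CRL1505 + LPS against LPS, 0.21 for CRL1506 + LPS against LPS and 0.32 between the strains. Between repeated spots of the same probe the median was at most 0.048. Neither SD measures the variation between cultures, labellings or slides, for which 1 array per group gives no estimate.

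Activins and TGF-beta are secreted dimers of one ligand family. They bind a pair of type II and type I receptor kinases, and the type I receptor phosphorylates Smad proteins that enter the nucleus and regulate target genes. Follistatin captures activin outside the cell, and Smad7 blocks the activated type I receptor. Macrophages make activin A, a dimer of the *Inhba* product, after TLR4 activation, and both activin and TGF-beta can promote or restrain inflammation depending on the state of the cell.

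The probe sequences show which part of each message was measured, and are given for the ligands and for follistatin where the probe lies in the coding region. They are written in the sense direction with positions on mouse build mm9 as the array annotation gives them. No letters are in capitals because each probe is read as a whole.
Inhba, probe A_51_P239750, chr13:16118634-16118693, plus strand: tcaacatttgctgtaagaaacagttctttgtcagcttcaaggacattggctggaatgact
Tgfb1, probe A_51_P390715, chr7:26489877-26489936, plus strand: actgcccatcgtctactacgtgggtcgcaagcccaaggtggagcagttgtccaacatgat
Tgfb1, probe A_66_P135688, chr7:26477408-26477467, plus strand: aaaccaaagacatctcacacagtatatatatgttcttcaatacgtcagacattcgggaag
Fst, probe A_51_P381821, chr13:115244692-115245364, minus strand, with an intron between its parts: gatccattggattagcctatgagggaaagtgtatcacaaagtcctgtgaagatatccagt
The *Inhba* probe and the first *Tgfb1* probe lie in the parts of the messages that encode the mature ligands. The second *Tgfb1* probe lies in the part that encodes the latency peptide, which keeps TGF-beta inactive after secretion.

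The LPS and CRL1506 + LPS arrays came from the same slide and scan run and the CRL1505 + LPS array from another, so the CRL1505 strain and its slide cannot be told apart in any value below. Between 48.5% and 55.3% of gene spots were well above background, and no gene spot was saturated. To compare arrays, log2 intensities were expressed relative to the 75th percentile over gene spots on the same array. In intensity, that percentile was 743 (LPS), 517 (CRL1505 + LPS) and 698 (CRL1506 + LPS). All 8 macrophage markers examined were well above background on every array, with a summed level between 571 and 712 times that percentile. That sum is mostly from a few bright probes such as *Lyz2*, and single markers moved apart: *Adgre1* was 4.83-fold higher and *Csf1r* 2.77-fold lower with CRL1505, against 2.0-fold higher and 1.83-fold lower with CRL1506. Neither B cell marker was well above background in any group. Of 3 T cell markers, *Cd3e* and *Cd4* were well above background on each array and *Cd8a* was not, and their summed level lay between 2.60 and 2.83 times the percentile. Of 3 epithelial markers, *Epcam* alone was well above background. It gave 162 in LPS and 58.0 with CRL1506, 2.63-fold lower, and with CRL1505 it was near background and lower by 3.81-fold or more. That bound depended on the scaling, with log2 values from -2.44 to -0.84 over the 7 other scalings described below. Of 3 fibroblast markers, *Col1a2* was at least 3.50-fold higher with CRL1505 and at least 1.33-fold higher with CRL1506. Over the same other scalings its log2 bound with CRL1505 ran from 0.77 to 2.26. *Dcn* was at least 4.12-fold higher with CRL1506, where 5 of the 20 spots nearest to its own were uneven, and *Pdgfra* was near background throughout. A spot is called uneven where its mean pixel signal exceeded its median by over 0.2 on the log2 scale. The summed level was at most 0.295 times the percentile for the epithelial list and at most 0.264 for the fibroblast list. The part of these markers in the results below was not tested. In these bulk samples, fewer cells of a type and less RNA per cell cannot be told apart.

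*Inhba*, which encodes the subunit of activin A, rose with both strains. Its brighter probe gave an intensity of 41.9 in LPS, 926 in CRL1505 + LPS and 776 in CRL1506 + LPS. The LPS value was just over the level at which probes of that array counted as well above background, where the lowest such intensity was 33.3. After scaling, *Inhba* was 31.8-fold higher in CRL1505 + LPS, a log2 ratio of 4.99, and 19.7-fold higher in CRL1506 + LPS, a log2 ratio of 4.30. It ranked 4 from the top of 13241 genes well above background on both arrays for CRL1505, and 4 from the top of 14407 for CRL1506. The second *Inhba* probe, near the end of the message, was dimmer. It stood well above background in the CRL1505 + LPS group alone, with a log2 ratio to LPS of at least 1.95. In CRL1506 + LPS its intensity was 33.7, not well above background, against 7.52 in LPS, and no ratio is given for that pair.

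The other ligands among the members did not reach 2-fold. *Tgfb1*, which encodes the main TGF-beta of immune cells, gave 3789.6 in LPS, 1545 in CRL1505 + LPS and 2871 in CRL1506 + LPS, with log2 ratios to LPS of -0.77 for CRL1505 and -0.31 for CRL1506. The probe in its latency peptide gave -0.53 and -0.48. Both probes were thus below LPS in both strain groups, by less than 2-fold. *Inhbb*, which encodes the subunit of activin B, was at 43.3 in LPS and not well above background in either strain group, at 12.4 and 29.6. Only a bound can be given for it, at least 1.02-fold lower for CRL1505 and at least 1.23-fold lower for CRL1506. *Inhba* and *Tgfb1*, both dimer subunits of secreted ligands, had log2 ratios of opposite sign in these cells. *Inhba* was picked for its rise, and the *Tgfb1* ratio of -0.31 for CRL1506 was little larger in size than that of a typical gene. The median absolute log2 ratio over genes well above background on both arrays was 0.23 there.

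**Figure D1:**
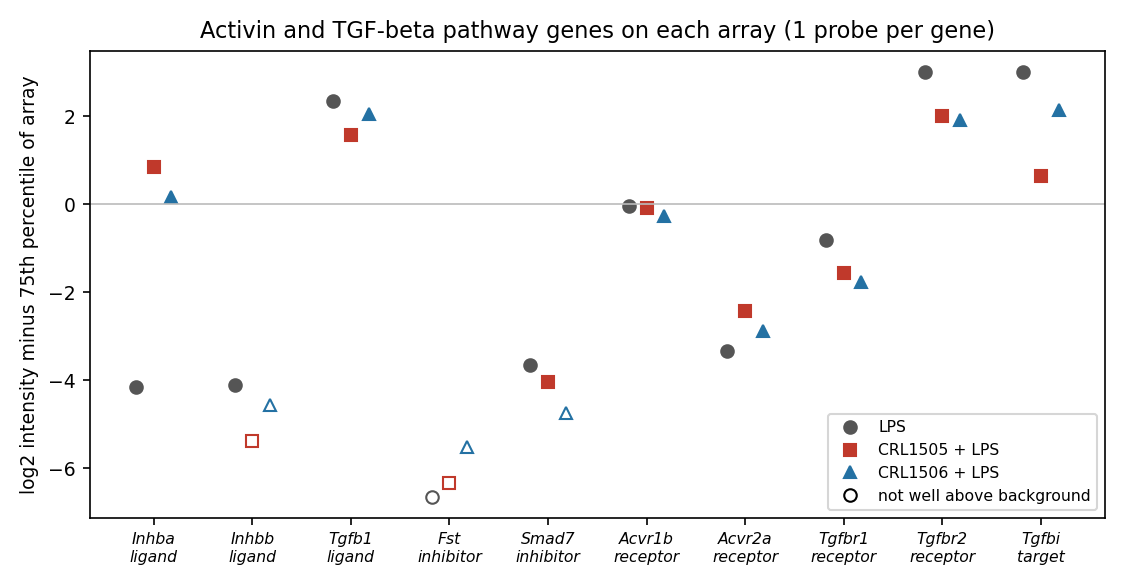
Log2 intensity minus the 75th percentile of the array (y axis) for the brightest probe of each of the 10 genes (x axis, with the role of each) in the 3 arrays, 1 point per array, with open symbols where the probe was not well above background. *Inhba* goes from -4.15 in LPS to 0.84 and 0.15 with the strains, while *Tgfbi* goes from 3.00 to 0.63 and 2.14.

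The inhibitors among the members were dim. *Fst*, which encodes follistatin, failed to stand well above background in any group, with intensities of 7.46, 6.44 and 15.2, so no ratio can be given. *Smad7*, whose protein blocks the type I receptors from inside the cell, gave 59.2 in LPS, 31.3 in CRL1505 + LPS and 26.0 in CRL1506 + LPS, the last not well above background. Its log2 ratio to LPS was -0.40 for CRL1505, and it was at least 1.68-fold lower for CRL1506. Neither value reached 2-fold, and its second probe was near background on all 3 arrays.

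Among the receptors, *Tgfbr2* was nearest to a fall with both strains. *Tgfbr2*, the type II receptor that binds TGF-beta directly, gave 5903 in LPS, 2083 in CRL1505 + LPS and 2631 in CRL1506 + LPS. It fell 2.11-fold with CRL1506, a log2 ratio of -1.08, and was 1.97-fold lower with CRL1505, at -0.98, just short of the threshold. These were high intensities, and the only probe of the gene was well above background on each array. *Tgfbr1*, the type I receptor that TGF-beta recruits next, gave 423 in LPS, 175 in CRL1505 + LPS and 206 in CRL1506 + LPS, with log2 ratios of -0.75 and -0.94. A second *Tgfbr1* probe gave 116, 23.7 and 101, the middle value not well above background. On that probe *Tgfbr1* was lower by at least 1.45 on the log2 scale with CRL1505, but its log2 ratio with CRL1506 was -0.11, so the probes of *Tgfbr1* differed in how it compared with LPS in that group. The remaining 2 of its 4 probes were near background on all 3 arrays.

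The activin receptors among the members lay closer to LPS or above it. *Acvr2b*, an activin receptor outside the members, gave log2 ratios to LPS of -0.72 for CRL1505 and -0.09 for CRL1506. *Acvr2a*, a type II receptor that binds activin, gave 74.0 in LPS, 95.9 in CRL1505 + LPS and 95.1 in CRL1506 + LPS, with log2 ratios of 0.90 and 0.45. A second probe in the same transcript gave 0.82 and 0.32. The remaining probe, which matches another transcript, was dim in LPS, that is not well above background. It gave a log2 ratio of at least 2.95 for CRL1505, from an uneven spot, and of at least 0.28 for CRL1506. *Acvr1b*, the type I receptor of activin, gave 717 in LPS, 488 in CRL1505 + LPS and 581 in CRL1506 + LPS, with log2 ratios of -0.03 and -0.21. A second *Acvr1b* probe stood well above background in the CRL1505 + LPS group alone, at 46.5 on an uneven spot, with a log2 ratio to LPS of at least 1.0. Of the 4 receptors among the members, *Acvr2a* alone was above LPS in both strain groups on the probe used, and it was below 2-fold in each.

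**Figure D2:**
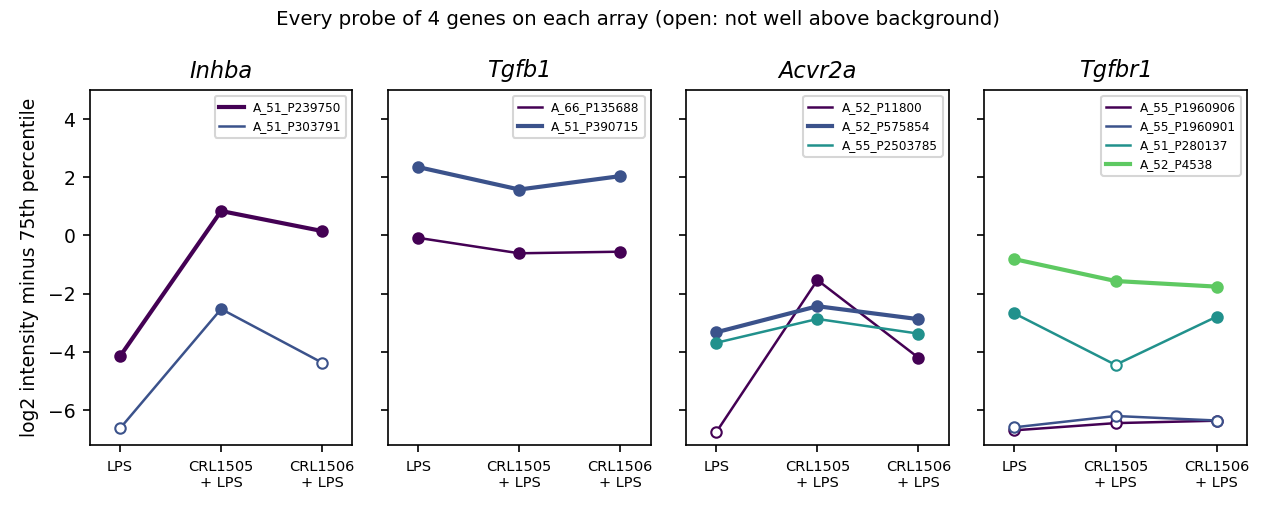
Log2 intensity minus the 75th percentile of the array (y axis) for every probe of *Inhba*, *Tgfb1*, *Acvr2a* and *Tgfbr1* in the 3 arrays (x axis), 1 line per probe, the thick line being the probe used and open points not well above background. Both *Tgfb1* probes are highest in LPS, whereas the *Tgfbr1* probe A_51_P280137 dips only in CRL1505 + LPS and the *Acvr2a* probe A_52_P11800 stands apart there, on an uneven spot.

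*Tgfbi*, the target among the members, encodes a secreted matrix protein named for its induction by TGF-beta. It gave 5943 in LPS, 799.5 in CRL1505 + LPS and 3082 in CRL1506 + LPS. It fell 5.17-fold with CRL1505, a log2 ratio of -2.37, which ranked 61 from the bottom of the 13241 genes measured on both arrays. With CRL1506 it was 1.81-fold lower, at -0.86, and did not reach 2-fold. CRL1505 + LPS was 2.86-fold below CRL1506 + LPS, a log2 ratio of -1.51. The 3 arrays thus lay apart for this gene, in the order LPS, CRL1506 + LPS and CRL1505 + LPS.

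For CRL1505, 1 of the 10 members rose, *Inhba*, where 9.92% of all genes compared were at least 2-fold higher, and 1 fell, *Tgfbi*, where 8.41% were at least 2-fold lower. For CRL1506, 1 rose, again *Inhba*, against 5.67% of all genes, and 1 fell, *Tgfbr2*, against 3.52%. These shares are over 15609 and 16284 genes with a ratio or bound. The counts are near what the shares give for 10 genes, and the choice of *Inhba* used these comparisons, so they say nothing particular about the members. Of the members well above background on both arrays, the median log2 ratio was -0.57 over 8 genes for CRL1505 and -0.31 over 7 genes for CRL1506, beside 0.06 and -0.06 over all such genes. Both comparisons use the same LPS array, so an error on it would enter both.

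**Figure D3:**
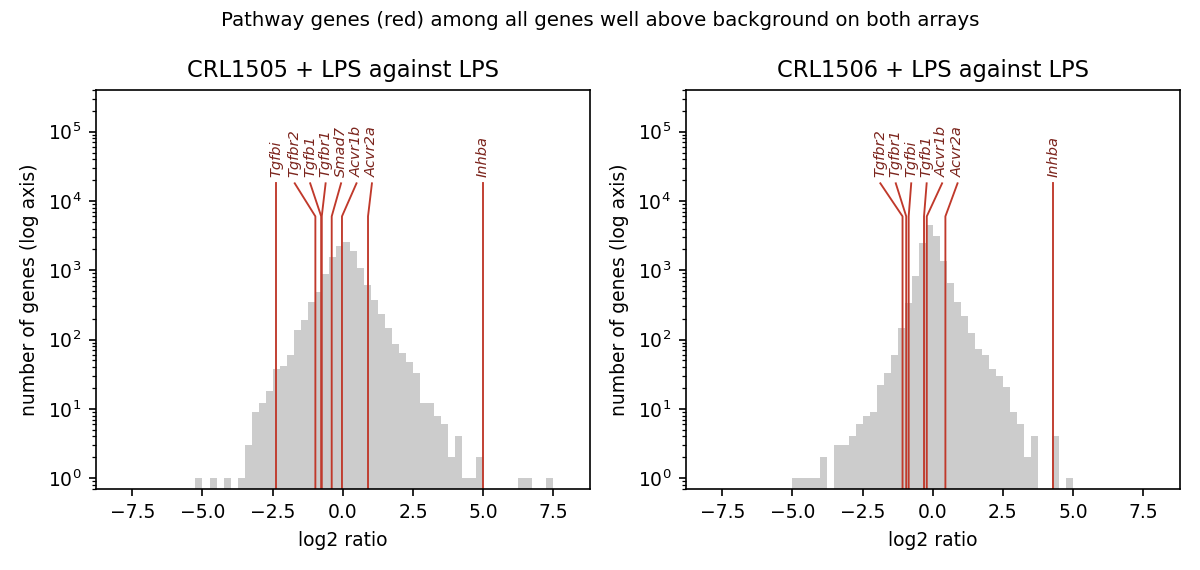
Number of genes (y axis, log scale) by log2 ratio to LPS (x axis) for all genes well above background on both arrays, with red lines at the members. *Inhba* lies at the upper end at 4.99 and 4.30, and *Tgfbi* lies toward the lower end for CRL1505 at -2.37, and *Tgfbr2*, *Tgfbr1* and *Tgfbi* lie on the lower flank for CRL1506, at -1.08, -0.94 and -0.86.

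Between the strains, on the probe used, no member was at least 2-fold higher in CRL1505 + LPS than in CRL1506 + LPS, where 9.01% of 15785 genes were. The only member at least 2-fold lower was *Tgfbi*, where 7.46% of genes were. *Inhba* was 1.61-fold higher with CRL1505, a log2 ratio of 0.69, and its dimmer probe gave at least 1.85. *Tgfb1* had a ratio of -0.46 on one probe and -0.05 on the other. The first ran from -0.86 to 0.04 over other scalings, so its sign changed too. All 4 receptors had ratios between 0.10 and 0.44 on the probe used. The sign changed with the scaling for *Acvr1b*, *Tgfbr1* and *Tgfbr2*. Other probes differed. A second *Tgfbr1* probe was lower with CRL1505, where it was not well above background, by at least 1.33 on the log2 scale. *Acvr2a* gave 0.50 on a second probe and 2.67 on the remaining one, whose CRL1505 + LPS spot was uneven. A second *Acvr1b* probe was higher by at least 0.92, also from an uneven spot.

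Since a shift between arrays moves all genes together, the ratios were also taken with 7 other scalings or background corrections. Over these, the *Inhba* ratio with CRL1505 ran from 3.37 to 5.29 and that with CRL1506 from 2.79 to 4.39, with the lowest values in the table that the authors had normalized. *Tgfbi* lay between -2.88 and -2.07 for CRL1505. *Tgfbr2* ran from -1.49 to -0.68 with CRL1505 and from -1.28 to -0.99 with CRL1506, and passed 2-fold in 5 of the 7 for each strain. *Tgfb1*, *Tgfbr1* and *Tgfbr2* were below LPS in both strain groups, and *Acvr2a* above, in every one. *Smad7* and *Acvr1b* changed sign for CRL1505. For *Inhbb*, a bound with CRL1505 existed in only 3 of the 7, from -0.53 to -0.14, and with CRL1506 in all 7. Scaling to the median of gene spots moved the median of all genes to 0.35 for CRL1505 and -0.26 for CRL1506, and scaling to spike-in probes moved it to -0.45 and -0.17. Relative to the median of all genes, *Tgfbi* ran from -2.50 to -2.28 with CRL1505, and *Tgfbr2* ran from -1.11 to -1.04 with CRL1505 and from -1.03 to -0.96 with CRL1506.

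**Figure D4:**
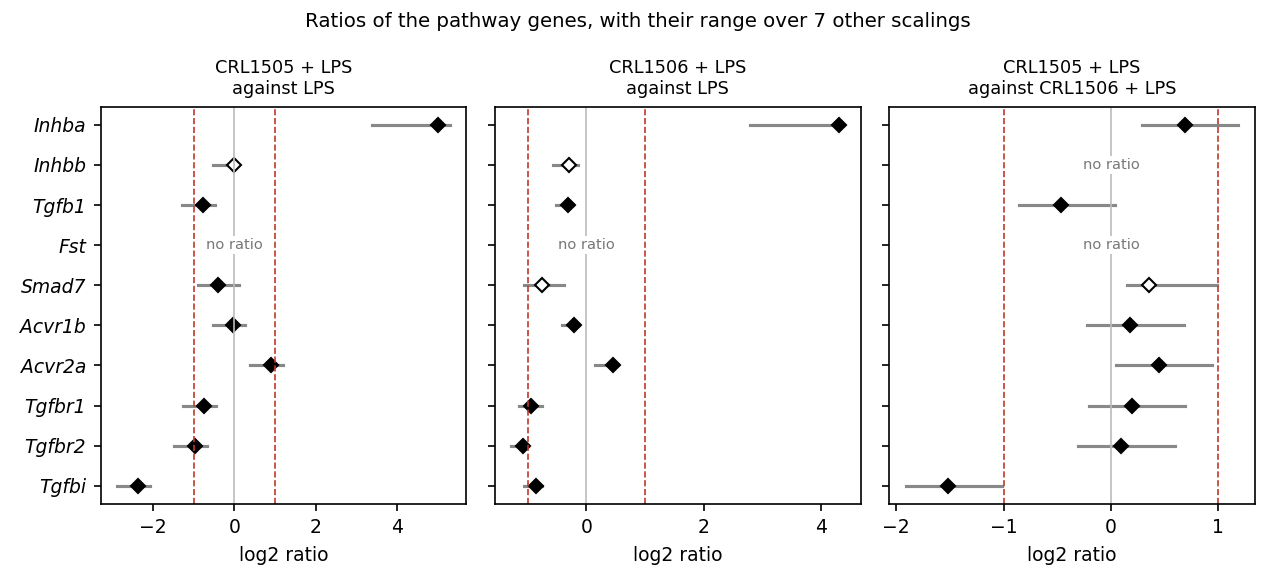
Log2 ratio (x axis) of each member (y axis) in the 3 comparisons, with filled diamonds for measured ratios, open diamonds for bounds, grey lines for the range over 7 other scalings or background corrections and dashed lines at 2-fold. The *Inhba* lines stay beyond 2-fold against LPS, the *Tgfbr2* lines cross the 2-fold mark, and the *Tgfbi* line stays beyond it for CRL1505 and between the strains.

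Another 66 genes of the activin, TGF-beta and bone morphogenetic protein (BMP) pathways were counted by role, of which 50 had a ratio or bound for CRL1505 and 53 for CRL1506. For CRL1505, 5 rose and 9 fell, where 9.92% of all genes compared were higher and 8.41% lower. For CRL1506, 3 rose and 6 fell, where 5.67% were higher and 3.52% lower. The list was made with earlier results of these data known, so its counts and medians are a description only. The medians over genes well above background on both arrays were -0.19 and -0.15, beside the medians of 0.06 and -0.06 over all genes. Of the rises, *Ltbp3*, *Thbs1* and *Ctgf* for CRL1505 and *Gdf11* and *Col1a1* for CRL1506 were bounds in which the probe was well above background only in the strain group. In these 5 genes the spot there was uneven, or at least 5 of its 20 nearest spots were, and none kept a ratio once such spots were left out. The counts without them were 2 rises for CRL1505 and 1 for CRL1506, with all falls kept.

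Among the ligands, *Tgfb3*, another TGF-beta isoform, fell with both strains, from 664 in LPS to 203 in CRL1505 + LPS and 302.5 in CRL1506 + LPS, with log2 ratios of -1.18 and -1.04. *Bmp2*, a BMP ligand, gave 88.2, 177.5 and 124 and rose with CRL1505 at 1.53, against 0.58 with CRL1506. *Lefty2*, a secreted antagonist related to the ligands, gave 70.6, 43.3 and 167 and rose with CRL1506 at 1.33, against -0.18 with CRL1505. Thus *Tgfb3* was the only other measured ligand to fall, and the rises of *Bmp2* and *Lefty2* were each in a different strain group. Among the genes listed under ligand activation and storage, *Ltbp2*, by name a member of the latent TGF-beta binding protein family, gave 1399.8, 215 and 1134. It fell with CRL1505 at -2.18, against -0.21 with CRL1506, and was 3.91-fold lower in CRL1505 + LPS than in CRL1506 + LPS. Of the 9 other receptors, 6 had a ratio or bound against LPS, and none rose or fell with either strain. Over the 7 other scalings, *Tgfb3* kept its fall in 4 for CRL1505 and 5 for CRL1506, *Bmp2* kept its rise in 6 and *Lefty2* in 5.

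The extracellular inhibitors that fell did so with CRL1505. *Fstl3*, a follistatin relative that also binds activin, gave 156 in LPS, 33.5 in CRL1505 + LPS and 118 in CRL1506 + LPS, with log2 ratios of -1.69 and -0.31. *Nog*, which encodes the BMP antagonist noggin, gave 359, 114 and 342.5, with -1.14, past 2-fold in 4 of the 7 other scalings, and 0.02. Both were thus at least 2-fold lower in CRL1505 + LPS than in CRL1506 + LPS, by 2.61-fold and 2.23-fold, a difference that stayed past 2-fold in 2 of the 7 other scalings for *Fstl3* and in 3 for *Nog*. The *Fstl3* value in CRL1505 + LPS was close to background, and its ratio there lay between -2.20 and -0.70 over the other scalings.

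Of the 6 signalling Smads, 5 had a ratio. *Smad1* and *Smad3* fell with CRL1505 and none passed 2-fold with CRL1506. *Smad3*, which carries the activin and TGF-beta signal, gave 811, 237 and 483, with log2 ratios of -1.25 and -0.66. Its second probe gave -1.17 and -0.23. *Smad1*, which carries the BMP signal, gave 5114, 1613 and 2849, with -1.14 and -0.75. *Smad2* and *Smad4*, by contrast, had ratios of 0.37 and 0.28 for CRL1505 and of -0.14 and -0.05 for CRL1506. Among the 11 intracellular inhibitors, *Smad6*, an inhibitory Smad that acts mainly on BMP signalling, fell with both strains, from 309.9 to 47.7 and 145, with -2.18 and -1.01, the latter past 2-fold in 4 of the 7 other scalings. *Tgif1*, a nuclear corepressor of Smad2 and Smad3, rose with CRL1505 at 1.15 on its brightest probe, past 2-fold in 4 of the 7 other scalings, but its 3 probes lay between 0.40 and 1.15 there and between -0.03 and 1.43 with CRL1506.

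Of the 9 genes listed as targets of the pathway, 4 of the 8 with a ratio or bound fell with CRL1506, where 3.52% of all genes did, and 2 of 7 with CRL1505, where 8.41% did. The targets were listed with earlier results of these data known, so these counts are a description and support nothing by themselves. *Id1* and *Id3*, BMP-responsive inhibitors of DNA binding, were below LPS with both strains. *Id1* gave 5457, 1457 and 1319, with log2 ratios of -1.38 for CRL1505 and -1.96 for CRL1506. *Id3* gave 18649.6, 7137 and 6409, with -0.86 and -1.45. Not all targets were lower: *Id2* gave 0.24 and -0.57. *Ctgf* with CRL1505 and *Col1a1* with CRL1506, both listed as targets, were among the rises from uneven spots given above. *Pdgfb*, a growth factor subunit, fell with CRL1506 at -1.20 on its brightest probe and at -0.43, under 2-fold, on the other, against -0.97 and -0.90 with CRL1505. *Cx3cr1*, the fractalkine receptor of the macrophage lineage, gave 2432 in LPS and 531 in CRL1506 + LPS, and was not well above background in CRL1505 + LPS, at 7.09. It was at least 57.1-fold lower with CRL1505 and 4.30-fold lower with CRL1506, where its 2 probes gave -2.19 and -2.10. The size of the CRL1505 bound depended on the scaling, and its log2 value ran from -6.34 to -4.22 over the 7 other scalings. Thus *Cx3cr1*, like *Tgfbi*, was lower with CRL1505 than with CRL1506. *Junb*, an early target, gave 0.63 and -0.43, and was 2.08-fold higher in CRL1505 + LPS than in CRL1506 + LPS, a ratio that kept to 2-fold or more in 2 of the 7 other scalings.

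**Figure D5:**
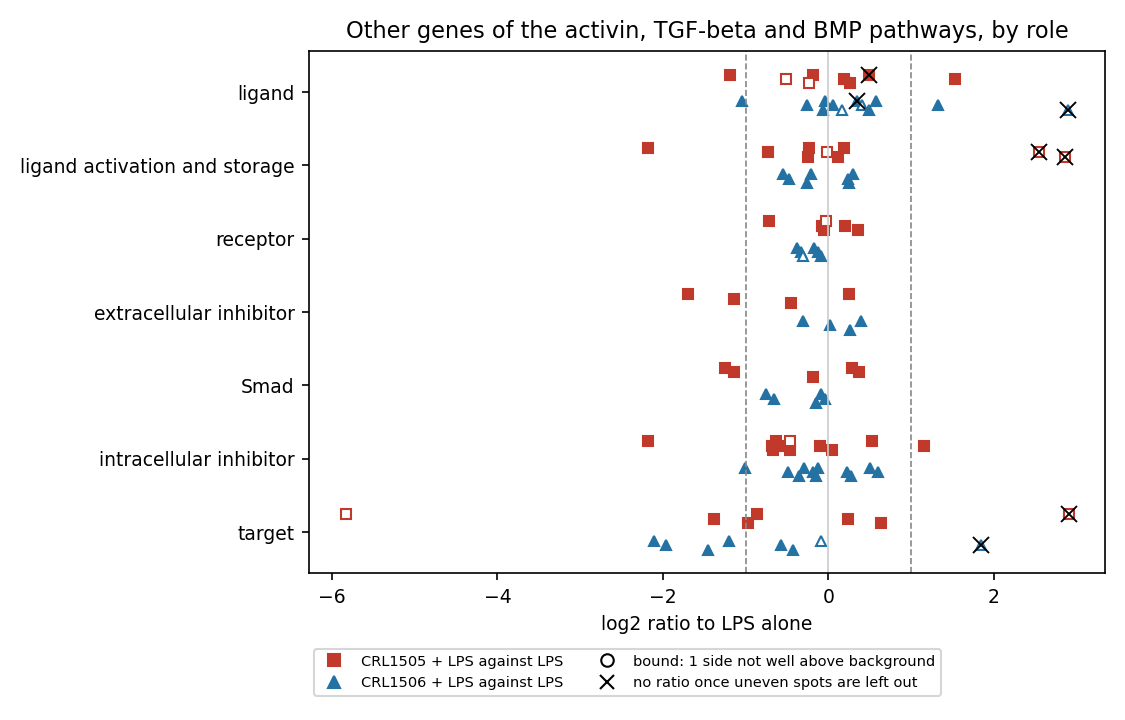
Log2 ratio to LPS (x axis) of the other 66 pathway genes by role (y axis), red squares for CRL1505 and blue triangles for CRL1506, with open symbols for bounds, crosses where no ratio remains once uneven spots are left out and dashed lines at 2-fold. Every rise larger than that of *Bmp2*, at 1.53, carries a cross, and the falls beyond -2 are *Ltbp2*, *Smad6* and *Cx3cr1* for CRL1505 and *Cx3cr1* for CRL1506.

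The 5 genes with the pair of log2 ratios nearest to that of *Inhba*, out of 13124 well above background on all compared arrays, were *Urah*, *4930438A08Rik*, *Sprr2e*, *Cp* and *Il6*. The measure was the straight distance between pairs of ratios, over the CRL1505 and CRL1506 comparisons, which share the LPS array. *Urah*, an enzyme of uric acid breakdown, was at 0.13 from *Inhba* with ratios of 4.86 and 4.27. *4930438A08Rik* was at 0.85 with 4.14 and 4.34. *Sprr2e*, a small proline-rich protein, was at 1.62 with 6.49 and 3.69. *Cp*, which encodes ceruloplasmin, was at 2.07 with 4.20 and 2.39, and *Il6*, the inflammatory cytokine, was at 2.09 with 4.25 and 2.35. The *Cp* values are those of its brightest probe. Its 4 measured probes lay between -0.86 and 4.20 with CRL1505 and between 0.21 and 2.39 with CRL1506. These distances were taken in the main scaling only, and the LPS value of *Inhba* was low. Over the 7 other scalings *Urah* ran from 4.27 to 5.16 with CRL1505 and from 3.88 to 4.35 with CRL1506, a narrower range than that of *Inhba*, which went as low as 3.37 and 2.79.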

How the data were processed

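Total RNA from RAW macrophages was labelled with Cy3 and hybridized to 1-colour mouse microarrays, with 1 array for each of 3 conditions taken from the sample labels. The authors deposited the intensity of each spot from Feature Extraction, version 12.0.3.1 per the file headers, with local background subtracted and no scaling between arrays. They also deposited a log2 table normalized between arrays, with a median of 6.77 on each. The submitters' processing notes name limma, the paper names GeneSpring for normalization and limma for statistics, and no normalization setting is given in the sources used here. The scale of that table is log2 and its centring method is unknown.

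Outlier spots were left out, the 75th percentile of gene spots was subtracted from log2 intensities, and each gene was represented by its brightest probe. Genes well above background on neither array were given no ratio, and where 1 side was dim the ratio was a lower bound against the higher of the array's lowest well-above-background signal and the dim probe's own. Changes were called at 2-fold. No test was possible with 1 array per group, which limits the precision, and slide or scan run could not be fitted. Alternatives were 5 other scalings, normexp background correction with an offset of 50, the deposited table, other probe and spot filters, and thresholds of 1.5-fold and 4-fold. A spot was uneven where its mean pixel signal exceeded its median by over 0.2 on the log2 scale.

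All members are named, as are pathway genes past 2-fold in any comparison and the 5 genes nearest to *Inhba*. One further gene of the pathway is not reported here. Members, lists and alternatives were chosen with earlier results of these data known. The calculation was tested on simulated data. R 4.3.3 with limma 3.58.1 and Python 3.11.15 with NumPy 2.4.6 and pandas 2.3.3 were used.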

Additional observations from a re-analysis of the deposited data

How the results depend on the processing

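*Inhba* was past 2-fold against LPS with both strains under all alternatives run, and *Tgfbi* with CRL1505. No ratio past 2-fold changed sign. The counts of members past 2-fold moved as follows. Scaling to the median gave 2 higher with CRL1505, 3 lower with CRL1506 and 1 higher between the strains. Cyclic loess gave 2 higher and 2 lower with CRL1505. The 75th percentile of detected probes gave 2 lower with CRL1505 and 0 with CRL1506. Spike-in scaling gave 4 lower with CRL1505 and 2 with CRL1506, quantile normalization 2 and 3, and measured values of dim probes 2 and 2. With dim probes kept, 2 were also higher with CRL1506. The deposited table gave 2 lower with CRL1505. The mean over probes gave 1 higher between the strains, *Acvr2a*, whose mean includes an uneven spot. At 1.5-fold, 2 were higher and 4 lower with CRL1505, 4 lower with CRL1506 and 1 higher between the strains. At 4-fold, 0 were lower with CRL1506 and 0 between the strains. All other counts kept their value, and the cause of these moves was not tested. Normexp correction, keeping outlier spots, leaving out uneven spots and requiring signal on all arrays moved no count.

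No paired analysis was possible because each group was 1 array, and the slide could not be fitted as a block. Signal over background limits *Fst* and *Inhbb*, whose ratios are absent or bounds, and *Smad7*, whose ratios are bounds where CRL1506 + LPS is compared. It also limits the size of the *Inhba* rise.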
